A study of Mus musculus with 2 samples.

Results

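Long intergenic noncoding RNA (lincRNA) genes are transcribed between protein-coding genes and are capped, polyadenylated and often spliced like messenger RNA, yet have no annotated protein product. A few have known tasks, in the nucleus or the cytoplasm or as hosts from which small RNAs are cut, and most have none assigned. In erythroid cells, some lie beside genes that control red cell maturation. The genes described here are those typed as lincRNA by the mouse GENCODE M21 annotation and listed at 1 TPM or more in both libraries, TPM being a relative abundance corrected for transcript length and library size, with Gm26917 and Gm42418 set aside. They numbered 45 of the 2777 lincRNA genes in the tables (1.62%), which hold 43346 Ensembl gene rows. They were thus selected on their measured TPM in these libraries, so their levels are given as a description with no test.

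The study sequenced paired ends of polyadenylated RNA in G1E-ER4 cells, with 2 libraries that the labels number as biological replicates 1 and 2. G1E is an immortalised mouse erythroid line that lacks the transcription factor GATA1, and G1E-ER4 is a clone of it that carries GATA1 fused to the hormone-binding part of the estrogen receptor. Both libraries came from cells given 10 nM 17beta-estradiol for 14 h, which lets the fusion act. No untreated group was analysed here, and both libraries point to the same biosample record, so a difference between them may be technical and no value here measures the response to estradiol.

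Replicate 1 held 38395481 expected counts and replicate 2 held 60097379, a depth ratio of 1.57. The 12 erythroid markers checked, among them Gata1, Klf1 and the globin genes, were at 1 TPM or more in both libraries. Their summed TPM was 37352.8 in replicate 1 and 86347.2 in replicate 2. Reads of Gata1 may come from the introduced fusion, so its level is no marker of cell type here. Markers of granulocytes and macrophages, lymphoid cells, fibroblasts and pluripotent cells had no gene at that level, with summed levels of at most 0.16 TPM for any list in either library. Of 4 megakaryocyte markers, Gp5 and Itga2b reached 1 TPM. Gm26917 and Gm42418 took 7.31% of all counts in replicate 1 and 4.18% in replicate 2. In bulk RNA, fewer cells that express a gene and less of its RNA per cell cannot be told apart.

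Most lincRNA genes had no reads. No counts were listed in either library for 2321 of the 2777 (83.6%). The share at 1 TPM in both libraries was 4.59% for genes of other long noncoding types (134 of 2917) and 37.6% for nuclear protein-coding genes (8062 of 21461). Another 5 lincRNA genes reached 1 TPM in replicate 1 only and 4 in replicate 2 only. A count of 0 allows a level of up to 0.0781 CPM (counts scaled by library total) in replicate 1 and 0.0499 in replicate 2, from a floor of 3 counts, which covers counting error only.

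Among the 45 genes the mean TPM of both libraries had a median of 11.4 and ran from 1.47 to 447. At 2 TPM or more in both libraries there were 33 genes, at 10 or more 20, and at 50 or more 4. Their summed level was 1755.4 TPM in replicate 1 and 1979.3 in replicate 2. Of these sums 64.5% and 63.6% came from the 3 highest genes, 2900097C17Rik, Mir142hg and Gm10076. Just inside the level stood Gm7160 (1.01 and 1.93 TPM in replicates 1 and 2), Snhg6 (1.08 and 7.13) and Gm7125 (8.46 and 1.38). Just outside were Dubr (0.94 and 0.93), Gm14321 (3.38 and 0.85) and Gm16386 (0.75 and 0.71). Across the 45 genes, log2 TPM + 1 in the libraries correlated with a Pearson r of 0.85 and a Spearman rho of 0.77, over genes that share both libraries.

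**Figure D1:**
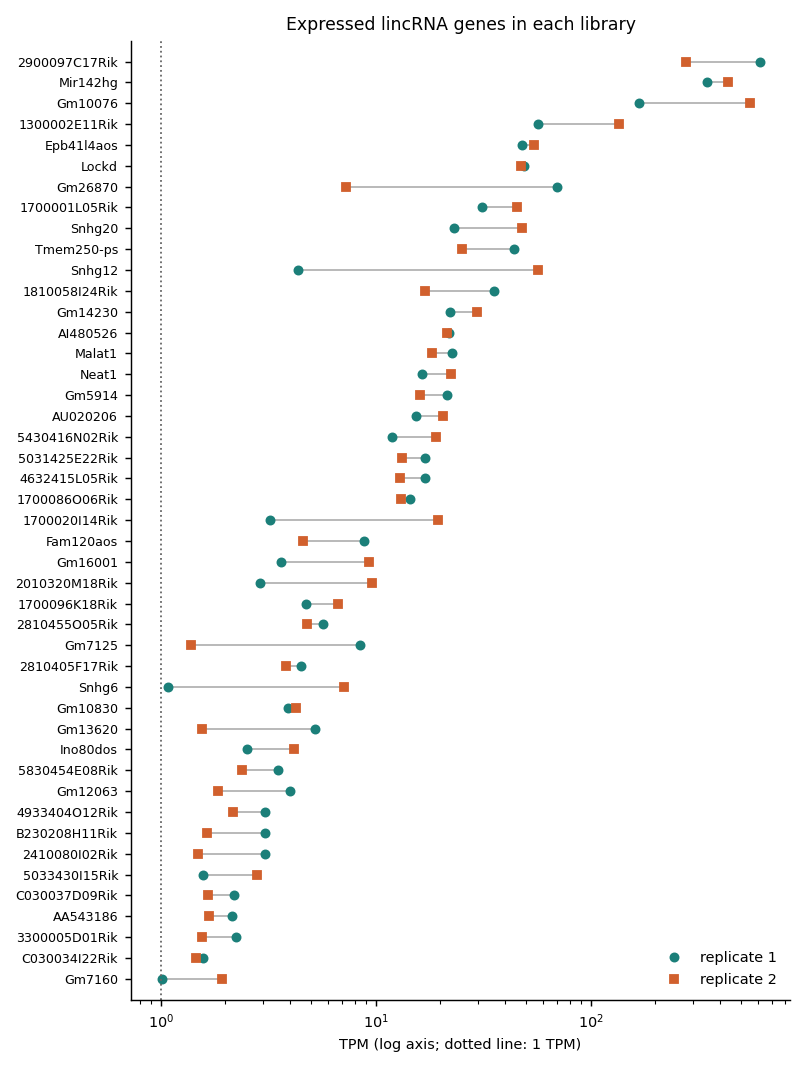
TPM of the 45 expressed lincRNA genes in replicate 1 (circles) and replicate 2 (squares) on a log axis, ordered by mean, with a dotted line at 1 TPM. The widest gaps are those of Snhg12 (4.36 and 56.75), Gm26870 (69.95 and 7.29) and Snhg6 (1.08 and 7.13). Next come Gm7125 (8.46 and 1.38) and 1700020I14Rik (3.22 and 19.52).

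Rounded counts of the libraries, scaled by edgeR's TMM sizes, were compared gene by gene in a two-sided exact binomial test, Benjamini-Hochberg adjusted over 11230 genes. A call needed an adjusted p below 0.05 and a 1.5-fold or larger difference. The test compares these 2 libraries, not conditions, and asks whether they differ by more than counting error. Of the 45 lincRNA genes 22 were called (48.9%), beside 41.5% of all genes tested. Higher in replicate 2 were 13 (28.9%), beside 22.8% of all genes, and higher in replicate 1 were 9 (20%), beside 18.7%. These shares lie near those of all genes and single out no property of lincRNA genes. The share called was 40.6% for expressed coding genes and 47% for expressed genes of other long noncoding types. The median difference of log2 TPM + 1, replicate 2 minus replicate 1, was -0.06 for the lincRNA genes, -0.09 for coding genes and -0.26 for the other long noncoding types. Scaled counts plus 1 gave a median of 0.09 for the lincRNA genes, of the opposite sign.

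**Figure D2:**
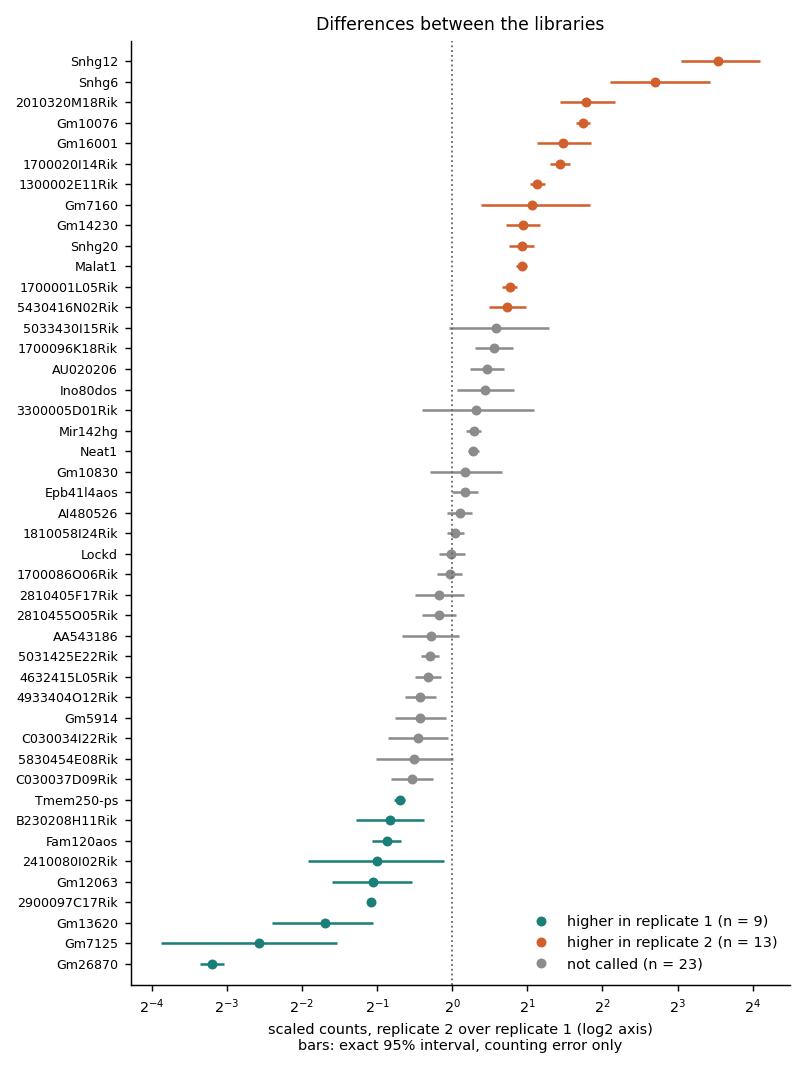
Ratio of TMM-scaled counts, replicate 2 over replicate 1, for each of the 45 genes on a log2 axis, with bars for the exact 95% interval of counting error. Colours mark the 13 genes called higher in replicate 2, the 9 called higher in replicate 1 and the 23 not called; Snhg12 at 11.6 and Gm26870 at 0.109 are the ends of the range.

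The lincRNA gene with the highest mean was 2900097C17Rik (ENSMUSG00000102869, chromosome 2, 156388065 to 156392979, minus strand, GRCm38), the mouse Norad gene. NORAD is a conserved unspliced RNA known for binding Pumilio proteins through many copies of their recognition sequence. Its level was 616 TPM in replicate 1 and 277 in replicate 2, from 18801.5 and 14990.3 expected counts. It was the highest of the 45 in replicate 1, and in replicate 2 it stood below Gm10076 and Mir142hg. The level was higher in replicate 1, and the ratio of scaled counts, replicate 2 over 1, was 0.471 (exact 95% interval 0.461 to 0.482). The deposited length of its transcript is 1149 bases against 4915 in M21, so its TPM rests on the shorter model. Over 51.6% of the M21 transcript aligned to Gm7292, another lincRNA gene, at 99.2% identity, and Gm7292 was listed at 0.26 and 0.32 TPM.

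The M21 transcript held 11 copies of the Pumilio motif TGTANATA on its own strand, or 2.24 per kb. Over all main transcripts the density was 0.126 per kb in lincRNA genes under the level and 0.106 in expressed coding genes. For genes without counts, most of those under the level, no main transcript was measured and the first by ID was taken. It was 0.232 in the 45 genes, but 11 of their 16 copies lie in this transcript, and without it the density was 0.078, below both of the other groups. A count of 10 or more was found in 1 of the 45 genes, in 0 of 2719 lincRNA genes under the level and in 2 of 7976 expressed coding genes. The copies are shown in transcript order with 6 bases on each side, the motif in capitals, because their number sets this transcript apart. They come from the M21 transcript sequence.
copy 1: gtcctgTGTATATAatatga
copy 2: acatgcTGTAAATAcctttt
copy 3: tttcttTGTACATAgtgtat
copy 4: ctgctgTGTATATAgtggac
copy 5: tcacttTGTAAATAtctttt
copy 6: gtatacTGTATATAatggac
copy 7: attttgTGTATATAgttttt
copy 8: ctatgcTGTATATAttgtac
copy 9: atatatTGTACATActggac
copy 10: ctactaTGTATATAggggac
copy 11: agaaagTGTACATAacggat
They lie between base 651, where the first begins, and base 3526, where the last begins. Copies 8 and 9, which begin at bases 2442 and 2451, are separated by a single base. A match in these letters is a description and not a measured binding site.

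Malat1 and Neat1, neighbours on chromosome 19, are long nuclear RNAs. MALAT1 gathers in nuclear speckles, and the long form of NEAT1 is the scaffold of paraspeckles. Malat1 (ENSMUSG00000092341, 5795690 to 5802672, minus strand) was at 22.5 TPM in replicate 1 and 18.3 in replicate 2. Its expected counts were 2114 and 6787, and the ratio of scaled counts was 1.90 (exact 95% interval 1.81 to 1.99). By TPM the gene was thus higher in replicate 1, and by counts it was called higher in replicate 2, with an adjusted p of 4.34e-160 in the exact binomial test. Its transcripts differed: the 6983-base RNA took 40.65% of the gene's TPM in replicate 1 and 100% in replicate 2, while a 656-base transcript took 59.35% and 0%. The 6983-base transcript alone was at 9.16 TPM in replicate 1 and 18.3 in replicate 2. The 656-base transcript rested on 207 of the gene's 2114 counts in replicate 1.

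Neat1 (ENSMUSG00000092274, 5824708 to 5845478, minus strand) was at 16.5 and 22.3 TPM. The ratio of scaled counts was 1.22 (exact 95% interval 1.15 to 1.28), under the fold of 1.5. The short 3004-base form took 93.02% and 96.08% of its TPM, and the 20771-base form 6.98% and 3.62%. The long form itself was at 1.15 TPM in replicate 1 and 0.81 in replicate 2, so the short form was the main transcript in both. A list of nuclear and other long RNAs had 9 measured genes. Besides Malat1, Neat1 and 2900097C17Rik, whose RNA is known as mainly cytoplasmic, 2 genes of another type reached the level, Tug1 at 49.8 and 21.3 TPM and Firre at 2.17 and 1.75. The other 4, among them Hotair and Miat, were under it.

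The 1700020I14Rik gene (ENSMUSG00000085438, chromosome 2, 119594297 to 119607502, plus strand) is the mouse form of Cyrano, known for a site of almost complete pairing to the microRNA miR-7. Its TPM was 3.22 in replicate 1 and 19.5 in replicate 2, from 559 and 2551 counts. Both measures were higher in replicate 2, with a TPM fold of 6.06 and a ratio of scaled counts of 2.70 (exact 95% interval 2.46 to 2.96). The 1381-base transcript took 35.47% of its TPM in replicate 1 and 82.99% in replicate 2. The 8300-base transcript had the remaining 64.53% and 17.01%. The long transcript itself was at 2.08 and 3.32 TPM. The miR-7 site lies in the 8300-base transcript, at 119602137 to 119602161, and paired with 22 of the 23 bases of miR-7a-5p. Site and microRNA are shown with paired bases of the site and the seed of the microRNA in capitals, the first from M21 and the second from RefSeq (GRCm38.p6).
1700020I14Rik site: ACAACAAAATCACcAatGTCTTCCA
miR-7a-5p: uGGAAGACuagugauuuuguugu
The site has 3 unpaired bases and the microRNA has 1. The transcript holds 2 matches to the seed, of which this is the longer pairing.

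**Figure D3:**
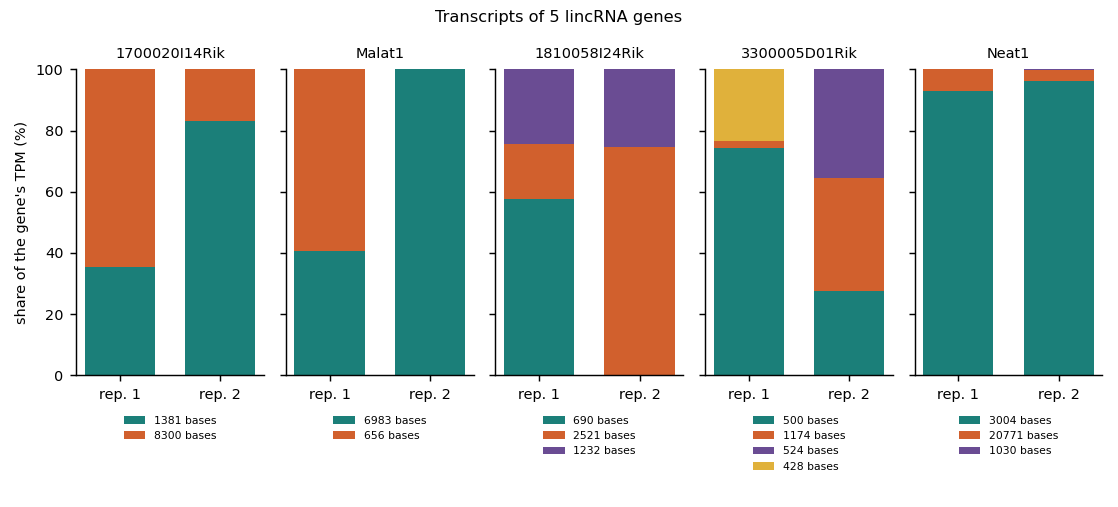
Share of each gene's TPM, in percent, given to each of its transcripts in replicate 1 and replicate 2 for 5 lincRNA genes, with transcript lengths in the keys. The main transcript differs between the libraries in 1700020I14Rik, Malat1, 1810058I24Rik and 3300005D01Rik, and Neat1 keeps its 3004-base form at 93.02% and 96.08%.

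Of the 45 genes 29 had 2 or more deposited transcripts, and in 25 of them the same transcript was the main form in both libraries. The 4 exceptions were Malat1, 1700020I14Rik, 1810058I24Rik and 3300005D01Rik. Among the 20 such genes with a mean of 5 TPM or more, 17 had the same main form. 1810058I24Rik (ENSMUSG00000073155, chromosome 6, 35252654 to 35263496, plus strand) is typed as lincRNA in M21 and as protein coding in RefSeq, which lists Stmp1, a small mitochondrial protein, and Mm47 among its names. Its 690-base transcript took 57.54% of its TPM in replicate 1 and 0% in replicate 2, and its 2521-base transcript took 17.91% and 74.45%. The gene had 35.4 TPM in replicate 1 and 17.0 in replicate 2, but its ratio of scaled counts was 1.03 (exact 95% interval 0.956 to 1.11). 3300005D01Rik rested on 24 and 51 counts.

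By TPM 20 of the 45 genes were higher in replicate 2 and by scaled counts 24. The direction differed in 4 of them: Malat1, 1810058I24Rik, AI480526 and 3300005D01Rik. AI480526 differed little on either scale, at 21.9 and 21.5 TPM with a count ratio of 1.07. In the other 3 the main transcript differed between the libraries.

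**Figure D4:**
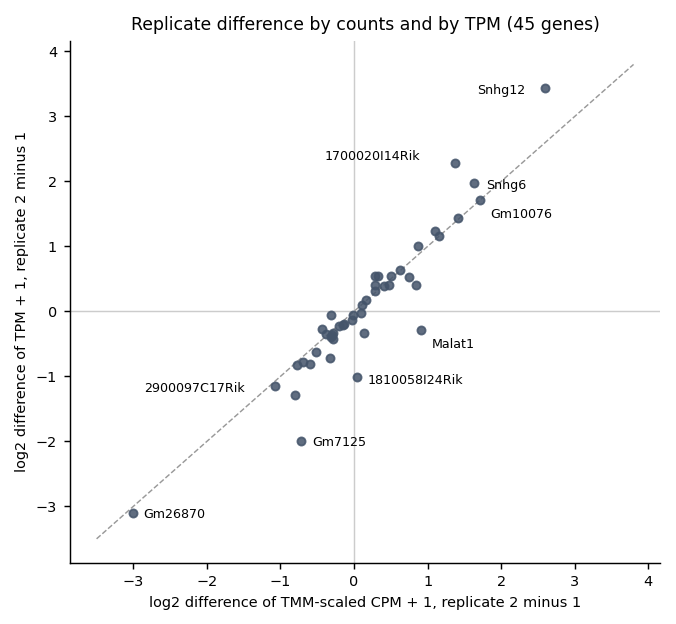
Difference between replicate 2 and replicate 1 for the 45 genes, as log2 of TMM-scaled CPM plus 1 on the horizontal axis and log2 of TPM plus 1 on the vertical axis, with equality as a dashed line. Malat1 (0.91 by counts, -0.29 by TPM), 1810058I24Rik (0.04 and -1.01) and 1700020I14Rik (1.37 and 2.28) lie off the line.

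Small RNAs annotated within a gene on its strand were found in 5 of the 45 genes (11.1%), in 2.34% of lincRNA genes under the level and in 8.70% of expressed coding genes. The 5 were Mir142hg, Snhg12, Snhg20, Snhg6 and Epb41l4aos. Small nucleolar RNAs (snoRNAs) guide the chemical marking of ribosomal and spliceosomal RNA and are mostly cut from introns. The host's polyadenylated RNA, measured here, is what remains of the same primary transcript.

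Mir142hg (ENSMUSG00000084796, chromosome 11, 87755577 to 87757270, plus strand) holds the microRNA gene Mir142, a microRNA abundant in blood cells, outside the exons of its main transcript. Its TPM was 348 in replicate 1 and 433 in replicate 2, from 1297 and 2673 counts on a 269-base transcript. The ratio of scaled counts was 1.22 (exact 95% interval 1.14 to 1.30), a difference beyond counting error but under the fold of 1.5. Both mature arms are shown from RefSeq (GRCm38.p6), with the seed, bases 2 to 8, in capitals, because this host had the second highest mean of the 45 genes.
miR-142a-5p: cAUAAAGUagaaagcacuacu
miR-142a-3p: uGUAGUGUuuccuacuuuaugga
They lie on chromosome 11 at 87756867 to 87756887 and 87756903 to 87756925, and their seeds differ. The host RNA was measured, not the microRNAs. Of 12 measured microRNA hosts, Mir142hg was the single lincRNA gene at the level. Dleu2, host of miR-15a and miR-16, was at 9.08 and 7.16 TPM and Mir22hg at 3.19 and 1.97, both of another type, and 9 were under the level, with Mir17hg at 0 and 0.11 TPM.

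The 3 lincRNA genes on the list of snoRNA hosts were each called higher in replicate 2, as were 22.8% of all genes tested. Epb41l4aos, which also hosts a snoRNA gene, was not called. Snhg12 (ENSMUSG00000086290, chromosome 4, 132308623 to 132311024, plus strand) was at 4.36 TPM in replicate 1 and 56.8 in replicate 2, from 33 and 655 counts. Its ratio of scaled counts was 11.6 (exact 95% interval 8.27 to 17.2), with an adjusted p of 1.54e-89 in the exact binomial test, the ratio farthest above 1 among the 45 genes. Snhg6 (ENSMUSG00000098234, chromosome 1, 9941959 to 9944118, minus strand) stood at 1.08 and 7.13 TPM, from 22 and 247 counts, with a ratio of 6.50 (exact 95% interval 4.29 to 10.8). Snhg20 (ENSMUSG00000086859, chromosome 11, 117076008 to 117078955, plus strand) stood at 23.2 and 47.7 TPM, with a ratio of 1.90 (exact 95% interval 1.69 to 2.14).

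Snhg12 hosts Snora16a, Snora44, Snora61 and Snord99, and Snhg6 hosts Snord87. These snoRNAs were listed at 0 TPM in both libraries, in RNA selected for a polyA tail, which snoRNAs lack. In M21 the main Snhg12 transcript is 1416 bases long and takes in Snora44, Snora61 and Snord99, while its deposited length is 364 bases. Snhg20 holds the microRNA Mir6516 and the small Cajal body RNA Gm26083, and Gm26083 was at 1.71 TPM in replicate 1 and 37.2 in replicate 2. Its reads cannot be told apart from those of unspliced Snhg20 RNA.

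Snord99 and Snord87 are shown from M21 with the box C and box D letters in capitals, ATGATGA near the 5′ end and CTGA near the 3′ end. These short boxes are what define this class of snoRNA and stand close to both ends.
Snord99: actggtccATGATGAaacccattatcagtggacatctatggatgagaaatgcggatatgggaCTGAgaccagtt
Snord87: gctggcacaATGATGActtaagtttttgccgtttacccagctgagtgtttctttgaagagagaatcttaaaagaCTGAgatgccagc
Snord99 lies on chromosome 4 at 132310691 to 132310764 and Snord87 on chromosome 1 at 9942463 to 9942549, minus strand.

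Many snoRNA hosts begin with a C followed by a run of pyrimidines, as do genes of ribosomal proteins. Here a start of C and then at least 4 bases of C or T was found at the first base of the main transcript in 1 of the 45 genes, Snhg12. The share was 2.28% for expressed coding genes and 12.5% for ribosomal protein genes. The first 30 bases of the 4 hosts of lincRNA type with named small RNAs are shown from M21, with such a run in capitals.
Snhg12: CTTTCTCgcttcatccgcggtccctgtctg
Snhg20: gaagtgcatttgcagagctggttccgccgg
Snhg6: atgccgtttcctgttctaatgtcccagtga
Mir142hg: actttggatccagctcttctcagctctgca
The annotated first base may not be the start used in these cells, and 2 of the 45 genes had such a run within 5 bases of it. A main transcript can also begin inside its gene. That of Snhg20 begins at 117076783 (gene start 117076008) and that of Snhg6 at 9943223 (gene start 9944118, minus strand). That of Snhg12 begins at 132308677 (gene start 132308623). The starts of their other transcripts are not shown.

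Epb41l4aos (ENSMUSG00000087590, chromosome 18, 33794892 to 33795986, plus strand) hosts the snoRNA gene Gm23639 and stood at 47.9 and 54.3 TPM, with a ratio of 1.13 (exact 95% interval 0.998 to 1.27). Of 13 measured snoRNA hosts on a list of such genes, 5 of other types reached the level. Gas5 was at 14.98 and 12.15 TPM, Snhg9 at 5.93 and 10.5, Zfas1 at 6.11 and 3.54 and Snhg15 at 5.54 and 3.73. The fifth, Snhg17, was at 4.09 and 5.04. Zfas1 and Snhg15 were called higher in replicate 1, and the other 3 were not called, so the direction of the lincRNA hosts was not that of the list.

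Near genes of red cell biology, Lockd (ENSMUSG00000098318, chromosome 6, 134929092 to 134956798, plus strand) begins 8691 bases from the start of Cdkn1b, which encodes the cell cycle inhibitor p27. Lockd was at 48.8 TPM in replicate 1 and 47.3 in replicate 2, from 438 and 736 counts, with a ratio of 0.993 (exact 95% interval 0.881 to 1.12). Cdkn1b was at 127 and 79.6 TPM. Lockd thus differed by less than counting error, and its deposited length of 441 bases compares with 5662 in M21. Gm12063 (ENSMUSG00000085167, chromosome 11, 24076559 to 24077367, plus strand) begins 1497 bases from the start of Bcl11a, a repressor of fetal-type globin genes. Gm12063 was at 3.99 and 1.84 TPM, from 69 and 56 counts, and was called higher in replicate 1 with a ratio of 0.481 (exact 95% interval 0.331 to 0.693). Bcl11a was at 75.5 and 73.4 TPM.

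By position the 45 genes had nearer coding genes than other lincRNA genes. The nearest coding start was a median of 13301 bases away, against 62666 for the 2730 lincRNA genes under the level. It was within 5000 bases in 37.8% of the 45 genes and in 13.3% of those under the level. The nearest coding gene was at 1 TPM in both libraries for 31 of 45 (68.9%) and for 27.8% of those under the level. Among the 45, log2 mean TPM + 1 of the lincRNA gene and of that neighbour correlated with a Pearson r of -0.22 and a Spearman rho of -0.12 (n = 45 pairs from the same libraries), a weak relation.

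A coding gene starting head to head, on the other strand and upstream within 1000 bases, stood beside 9 of the 45 genes (20%), against 6.12% of lincRNA genes under the level. All 9 coding partners were at 1 TPM or more in both libraries, against 89 of 167 partners (53.3%) of the genes under the level. Gm14230 (22.2 and 29.5 TPM) starts 115 bases from Tgif2, a repressor in TGF-beta signalling, at 56.7 and 46.0 TPM. AI480526 starts 527 bases from Setd1b, a histone H3 lysine methyltransferase, at 200.1 and 110 TPM. 5031425E22Rik (16.9 and 13.2 TPM) starts 172 bases from Kmt2e at 13.3 and 8.80 TPM and was the single gene of the 9 above its partner in both libraries.

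Fam120aos was at 8.83 and 4.58 TPM, 270 bases from Fam120a at 182.5 and 135.6, and was called higher in replicate 1 (ratio 0.545, exact 95% interval 0.475 to 0.626). Gm16001 was at 3.62 and 9.33 TPM, 33 bases from Ogfod2 at 55.4 and 48.7. 2010320M18Rik was at 2.90 and 9.59 TPM, 102 bases from Pik3r2, a regulatory subunit of phosphoinositide 3-kinase, at 92.4 and 51.8. Both of these lincRNA genes were higher in replicate 2, with ratios of 2.78 (exact 95% interval 2.19 to 3.60) and 3.44 (exact 95% interval 2.71 to 4.47), while both partners had a lower TPM in replicate 2. The remaining 3 were 5033430I15Rik beside Atxn1, C030037D09Rik beside Msi2 and Gm7160 beside Zcchc2, at 124 to 245 bases.

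**Figure D5:**
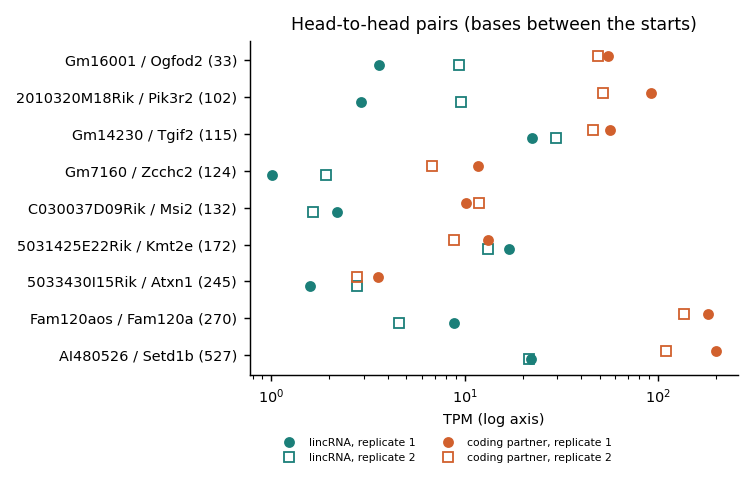
TPM on a log axis for the 9 head-to-head pairs, ordered by the bases between the starts (in brackets), with lincRNA genes in green and coding partners in orange, circles for replicate 1 and squares for replicate 2. 5031425E22Rik lies above Kmt2e in each library, and Fam120aos and AI480526 lie far below their partners.

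The shared stretch between the starts is shown for the closest such pairs, from the RefSeq promoter table (GRCm38.p6), on the lincRNA strand and with the first base of each gene in capitals, because it shows how little sequence separates the transcripts.
Gm16001, chr5:124112264-124112297, minus strand: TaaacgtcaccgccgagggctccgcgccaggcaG
2010320M18Rik, chr8:70776713-70776815, plus strand: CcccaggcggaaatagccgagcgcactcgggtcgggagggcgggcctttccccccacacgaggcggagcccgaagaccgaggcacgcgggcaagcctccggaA
RefSeq promoters, 250 bases before to 50 after a start, were matched for 27 of the 45 genes. A GATA motif, spelled AGATAA, or with other flanks AGATAG, as well as TGATAA, and also TGATAG, on either strand, was present in 6 of the 27 (22.2%). The share was 32.6% for lincRNA genes under the level, 16.7% for expressed coding genes and 29.8% for all RefSeq promoters. The median G and C content of these promoters was 60.3%, 49% and 61.7% for the first 3 groups in that order. The matched RefSeq start was not always the M21 gene start. Among the 6 genes with the motif, these starts lay 775 bases apart for Snhg20, 1803 for Gm14230 and 955 for C030034I22Rik. They lay 55 bases apart for Snhg12 and 0 for 5830454E08Rik and 3300005D01Rik. The absence of the letters from a window says nothing of GATA1 binding.

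Some members share sequence with coding genes. Gm10076 (ENSMUSG00000060143, chromosome 14, 105681828 to 105682211, plus strand), the third highest by mean, was at 167 TPM in replicate 1 and at 549 in replicate 2, where it was the highest of the 45. It has a single exon and is a pseudogene in RefSeq. Of its 384 bases, 381 were identical to Rpl41, which encodes a small ribosomal protein, in an alignment with 2 substitutions and 99.5% identity. Rpl41 itself was at 2896.9 TPM in replicate 1 and 11534 in replicate 2, also higher in replicate 2. The substitutions, written with the Rpl41 base first and counted from the first base of Gm10076, are C127T and G234A. They are shown with 10 bases on each side and the differing base in capitals, since within the aligned stretch these are the bases at which reads of the genes differ.
Gm10076 at C127T: taagccagccTgtgcacctac
Rpl41 at C127T: taagccagccCgtgcacctac
Gm10076 at G234A: gacctggaacAtcacctcgcc
Rpl41 at G234A: gacctggaacGtcacctcgcc
The level of Gm10076 is therefore uncertain, and its expected count in replicate 2, 6815.4, was not whole, as is the case where reads were divided.

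Gm7125 (ENSMUSG00000069996, chromosome 15, 68792320 to 68883576, plus strand), a pseudogene in RefSeq, was 97.4% identical to Hmgn2, which encodes a nucleosome-binding protein. It was at 8.46 and 1.38 TPM from 32.5 and 8.83 counts, and Hmgn2 was at 826 and 846 TPM. Gm26870 (ENSMUSG00000097312, chromosome 9, 3000282 to 3038313, minus strand) had the lowest ratio of the 45, with 69.95 TPM in replicate 1 and 7.29 in replicate 2. Its counts were 2177 and 402, and its ratio 0.109 (exact 95% interval 0.0979 to 0.122). Over 42.8% of its transcript aligned elsewhere, best to the predicted coding gene Gm21738, which was at 22.2 TPM in replicate 1 and 2.17 in replicate 2. That alignment was to the opposite strand of the Gm21738 transcript. The expected counts of Gm26870 were whole in both libraries, unlike those of Gm10076 and Gm7125. Its exons also overlap Gm10719, Gm10721 and Gm11168 on the other strand. Gm21738 was lower in replicate 2 as well, and its part in the value of Gm26870 was not tested.

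The other genes among the 15 with the highest mean had no such host or pairing. 1300002E11Rik (ENSMUSG00000097290, chromosome 16, 21794318 to 21809040, plus strand) was at 56.7 and 135 TPM, with a ratio of 2.19 (exact 95% interval 2.04 to 2.36). It overlaps exons of Map3k13 on the same strand, and Map3k13 was at 0.08 and 0.07 TPM. 1700001L05Rik (chromosome 15, 83353847 to 83367282, minus strand) was at 31.1 and 45.5 TPM, with a ratio of 1.70 (exact 95% interval 1.59 to 1.82). Tmem250-ps (chromosome 2, 26136814 to 26140521, minus strand), protein coding in RefSeq, was at 43.9 and 25.2 TPM and was called higher in replicate 1, with a ratio of 0.616 (exact 95% interval 0.585 to 0.649). In 14 of the 45 genes exons overlapped a gene on the other strand and in 5 a gene on the same strand. Whether counting used strand is not given in the sources used here, and whether reads of such partners were shared was not tested. Expected counts were whole in both libraries for 39 of the 45 genes. Lockd, Tmem250-ps and AI480526, with overlap on the other strand, were among these. Gm5914, with overlap on both strands, and Neat1, with overlap on the same strand, were not.

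The main transcript had a single exon in 13 of the 45 genes (28.9%), against 6.47% of lincRNA genes under the level and 2.43% of expressed coding genes. The median length was 852 bases and the median G and C content 51.1%, beside 45.6% for lincRNA genes under the level and 52.8% for expressed coding genes. Most lincRNA genes under the level had no counts, and for these the first transcript by ID stood as the main one in both comparisons. The M21 length equalled the deposited one in 35 of the 45 and differed by more than 2-fold in 4: 2900097C17Rik, Lockd, 1700001L05Rik and Snhg12. RefSeq types 32 of the 45 as long noncoding RNA, 2 as protein coding and 3 as pseudogenes, and 8 had no match by name.

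Many well-known lincRNA genes were absent from the 45. Of 10 measured RNAs of X inactivation and imprinting, none of lincRNA type reached the level. Xist was listed at 0 TPM in both libraries, with 0 and 1 counts. The antisense genes Tsix and Nespas did reach it, Tsix at 6.71 and 5.48 TPM and Nespas at 2.49 and 2.84. As the strand setting of counting is not given, how reads were divided between antisense genes and genes on the other strand was not tested. Of 3 measured RNAs linked to p53 or MYC, Pvt1 was at 0.30 and 0.06 TPM, Trp53cor1 at 0 and 0.11 and Lncpint had no counts. Of 2 measured red cell RNAs, neither is typed as lincRNA. The antisense gene Ttc39aos1 was at 0.56 and 0.12 TPM, from 6 and 2 counts. Dleu2 reached the level, at 9.08 and 7.16 TPM.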

How the data were processed

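The 2 libraries were taken as 1 group of 2 replicates. Per the labels the build is mm10, and the annotation is GENCODE M4 per the deposited notes. Aligner, quantifier and strand setting: not given in the sources used here. Each library has a table of genes and a table of transcripts, with RSEM's column names per the file headers. The deposited expected counts are estimated and need not be whole. The deposited TPM divides them by effective transcript length and scales to a fixed sum. The deposited FPKM was used only as an alternative level. The deposited isoform percent gives how much of a gene's TPM a transcript takes. The authors' bounds on TPM, held as signal, did not overlap between the libraries for 29 of the 45 genes. The share over all genes was not computed, so this count shows nothing particular to lincRNA genes.

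Gene IDs without version were matched to M21 for 42462 of 43346 Ensembl rows. Rows that name no Ensembl gene, 26345 in all, held 2 counts in replicate 1 and 0 in replicate 2 and were left out. Counts were rounded. Genes with at least 10 counts in sum were tested with an exact binomial test (scipy 1.17.1) against TMM sizes (edgeR 4.0.16), with 0.5 counts added for folds. On simulated counts with counting error alone, the test called 97 of 100 genes changed 2-fold, 100 of 100 changed 4-fold and 1 of 11071 unchanged. That is the error the test assumes, and no other variation between libraries was simulated. The simulation thus checks the code and gives no rate of false calls for real replicates. Log2 TPM differences used a pseudocount of 1. Near copies were found with BLAST 2.17.0 (at least 95% identity over 100 bases or more). Positions are GRCm38. The members and the 6 gene lists were chosen with earlier results of these data known. Named were the 15 highest members, list members, small RNA hosts, members with a head-to-head partner or a red cell neighbour, those at the edge of the level, those with a differing main transcript, and the 5 largest called folds each way with a mean of 5 TPM or more. Gm7125, 1810058I24Rik's RefSeq type and 3300005D01Rik's counts were added after their values were seen, as were Gm21738 and Gm7292. Alternatives covered scaling, filters, fold, pseudocount, each library alone and distance windows.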

Additional observations from a re-analysis of the deposited data

How the results depend on the processing

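A minimum of 10 expected counts in both libraries in place of 1 TPM gave 91 lincRNA genes. At a fold of at least 2, 14 members were called (31.1%, beside 21.6% of all genes). Of these 8 were higher in replicate 2, as were 13.7% of all genes. Without a fold minimum 33 were called (73.3%, beside 73.5%), and 15 were higher in replicate 1, as were 36.2% of all genes. Scaling by total counts moved every log2 difference by 0.11 relative to TMM and called 24 members (53.3%, beside 41.5% of all genes). DESeq2 size factors (DESeq2 1.42.0) called 22 (48.9%, beside 41.6%). Without the highest member the mean summed level of 1867.3 TPM became 1420.5. A pyrimidine start was found in 2 members when allowed within 5 bases, in 2 at the RefSeq start, and in 1 to 2 when either library alone set the level. For Malat1 the log2 difference went from -0.29 by TPM to 0.91 by scaled counts, and the cause was not tested. 3 alternatives were chosen after seeing the data. Of the 28 members without exons that overlap another gene, 14 were called (50%, beside 41.5% of all genes), so the share called did not fall. Of these 8 were higher in replicate 2 (28.6% of the 28, beside 22.8%). Without Gm10076, Gm26870 and Gm7125 the summed level was 1465.9 TPM and 19 of 42 were called (45.2%, beside 41.5% of all genes). Without 2900097C17Rik the density of TGTANATA was 0.078 per kb, against 0.232. Of the other results, 46 values for whole-group results stayed within 1.5 times or within the replicate spread. Of the remaining values 82 did so, 8 moved, among them the density of TGTANATA, and 1 was reversed, that of Malat1. For a single member the spread comes from its own difference between the libraries, so a large difference can shrink much and still count as within it. Gm7125 went from -1.99 by TPM to -0.72 by scaled counts and counted so. For the summed level, either library alone stays within the spread by construction. A window of 500 bases before the start for the GATA motif was not run, and DESeq2's own test was not run with 1 library a side. No paired analysis was possible because there was 1 group. Depth limits the lowest members, of which Gm7125, 2410080I02Rik and Gm7160 had 22 to 32.5 counts in replicate 1.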
